A study of Rattus norvegicus with 36 samples.

Results

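The 9 myogenic transcription factors described here are *Myod1*, *Myog*, *Myf5*, *Myf6*, *Mef2a*, *Mef2c*, *Mef2d*, *Six4* and *Msc*, taken by gene symbol from the 24275 genes of the deposited count tables. Each symbol matched 1 gene. *Myod1* (ENSRNOG00000011306) lies on chromosome 1 at 102396538 to 102399248, *Myog* (ENSRNOG00000030743) on chromosome 13 at 51126459 to 51129048, *Mef2a* (ENSRNOG00000047756) on chromosome 1 at 128209971 to 128341263, *Mef2c* (ENSRNOG00000033134) and *Mef2d* (ENSRNOG00000031778) on chromosome 2 at 11658568 to 11822787 and 187512164 to 187538026, and *Six4* (ENSRNOG00000007250) on chromosome 6 at 95984868 to 95998529. *Myf5* (ENSRNOG00000004768) and *Myf6* (ENSRNOG00000004878) are neighbours on chromosome 7, at 49729533 to 49732764 and 49739646 to 49741540, and *Msc* (ENSRNOG00000007540) is on chromosome 5 at 3955227 to 3956572. These positions are the files' own, in a build they do not name. The RNA came from H9C2, a rat cell line derived from embryonic heart and labelled as cardiac myoblasts. Every culture was transfected with 25 nmol/L of a small RNA, either a mimic control (MC), a mimic of miR-125b, or a mimic of an isomiR of it, that is, a form with a changed 3′ end. Plus A carries an extra A, and Trim A, Trim AG and Trim AGU lack the bases in their names. After transfection the cells were kept in normoxia in fresh DMEM or in hypoxia in serum-free medium with low glucose, so oxygen and medium cannot be told apart. All groups came from this 1 cell line, and no untransfected cells are among the libraries used. There were 3 libraries in each group, and counts of 33 libraries in 11 groups were used: MC, miR-125b and the 4 isomiRs in hypoxia, and all of these but MC in normoxia. Total counts were 28361216 to 42672584 in a library. The Hypoxia Trim AG libraries were the deepest, at 39940087 to 42672584, against 34505938 at most in any other group. The part of depth in the values of that group was not tested. Levels are given as CPM, a gene's counts scaled by the total of its library, and the error is the spread between libraries. The sources used here do not say whether the libraries of a group came from separate cultures, so p-values measure only the spread between these libraries, which may be technical.

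MyoD (*Myod1*), Myf5 (*Myf5*), myogenin (*Myog*) and MRF4 (*Myf6*) are the myogenic regulatory factors of skeletal muscle, basic helix-loop-helix proteins that pair with E proteins and bind E-boxes in muscle genes. MyoD and Myf5 set the myoblast fate, myogenin drives the differentiation of committed myoblasts, and MRF4 is mainly a gene of later fibres. MEF2 proteins are MADS-box factors that act with the myogenic regulatory factors in skeletal muscle and are also used in the heart. Six4 is a homeodomain protein that binds MEF3 sites in the promoters of myogenic genes, and musculin (*Msc*, MyoR) is a repressor of the same helix-loop-helix family. H9C2 cells are known to keep features of skeletal myoblasts besides their cardiac label.

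The mimics are shown first because they differ only at the 3′ end. All 5 share 1 seed, bases 2 to 8, printed in capitals. The miR-125b sequence is RefSeq's, at chr11:29732588-29732609 on the plus strand of GRCr8, and the isomiRs follow from their names.
miR-125b: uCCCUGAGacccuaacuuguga
Plus A: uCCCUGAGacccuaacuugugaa
Trim A: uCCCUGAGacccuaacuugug
Trim AG: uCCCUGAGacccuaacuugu
Trim AGU: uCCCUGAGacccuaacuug

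The promoter of *Myog* is shown because the products of other members can bind the motif types marked in it. The set of RefSeq promoters used here held 6 of the 9 members, *Myog*, *Myf5*, *Myf6*, *Mef2a*, *Mef2d* and *Six4*, and not *Myod1*, *Mef2c* and *Msc*. The 250 bases before the start of *Myog* lie at chr13:48297226-48297475 on the plus strand of GRCr8, with the matches in capitals.
Myog: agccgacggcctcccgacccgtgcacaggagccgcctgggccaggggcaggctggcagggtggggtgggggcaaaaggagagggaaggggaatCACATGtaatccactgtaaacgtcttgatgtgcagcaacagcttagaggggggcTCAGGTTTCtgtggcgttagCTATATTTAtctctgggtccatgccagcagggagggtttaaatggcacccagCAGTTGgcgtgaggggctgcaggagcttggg
Letters were searched on both strands, and the marked motifs do not overlap. An E-box (CANNTG) was matched 157 to 152 and 31 to 26 bases before the start, a MEF2-type run (CTANNNNTA) 83 to 75 bases before it and a MEF3 site (TCAGGTTTC) 103 to 95 bases before it. Among 33469 rat promoters of this length, 65.5% held the E-box letters, 6702 promoters held the MEF2-type letters and 0.37% the MEF3 letters. *Myog* was the only one of the 6 members with the MEF3 letters, and a match here describes letters only, not binding.

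The label of the cells was compared with marker genes. Of 13 cardiac lineage genes in the tables, 5 reached 1 CPM in a group mean. The cardiac factors *Nkx2-5*, *Tbx5*, *Tbx20* and *Hand1* and the heart myosins *Myh6* and *Myh7* stayed below 1 CPM in every group. The group means of *Gata4* lay at 9.18 to 15.1 CPM, of *Gata6* at 3.66 to 9.59 CPM and of *Hand2* at 3.41 to 8.525 CPM. Those of *Tnnt2* lay at 11.7 to 307 CPM and of *Tnni3* at 1.16 to 2.89 CPM. The skeletal myoblast cadherin *Cdh15* lay at 216 to 572 CPM and the satellite cell factor *Pax7* at 0.472 CPM at most. Of the other skeletal myoblast markers, *Chrna1* lay at 0.867 to 30.35 CPM and *Des* at 1.01 to 4.42 CPM. Fibroblast genes summed to 9379 to 45220 CPM in a library and smooth muscle genes to 5627 to 16720 CPM. Leukocyte genes summed to 3.67 CPM at most, and *Tek*, the 1 endothelial gene of the list in the tables, reached 4.46 CPM.

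Some libraries stood apart. Replicate 2 of Hypoxia Trim AGU differed from its group mates by a chi-square per gene of 236 and 134, against 4.97 for the closest pair of replicates in the series. Its *Myod1* and *Myog* levels were 99.5% and 102% of the mean of the other Hypoxia Trim AGU libraries, but its *Mef2a* level was 23.4%, *Mef2d* 65.9%, *Six4* 73.1% and *Mef2c* 73.5% of it. *Cav1*, a membrane gene whose level separated Plus A from miR-125b in hypoxia, was 93.9 to 100.2 CPM in Hypoxia Plus A and 241 to 246 CPM in Hypoxia miR-125b. In normoxia it was 269, 98.0 and 98.3 CPM in Plus A replicates 1 to 3 and 102, 282 and 263 CPM in miR-125b replicates 1 to 3, so the libraries labelled replicate 1 of these groups went against their labels. Further libraries differed from their group mates by less. Replicate 1 of Hypoxia Trim A had a chi-square per gene of 79.7 and 61.7 against the others of its group, which differed from each other by 8.16, and replicates 1 and 2 of Hypoxia Trim AG differed by 103, against 36.5 and 30.0 for the other pairs.
Leaving out replicate 2 of Hypoxia Trim AGU, the log2 differences of that group from MC were −1.59 for *Myod1*, −3.09 for *Myog* and −0.85 for *Mef2c*, all called. Without replicate 1 of Hypoxia Trim A, *Myog* was at −3.06 against MC and −0.63 against miR-125b. Without replicate 1 or replicate 2 of Hypoxia Trim AG it was at −4.92 or −4.86 against MC and at −2.51 or −2.44 against miR-125b, and called in each.

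Of the 9 members, 6 were expressed at 1 CPM or more in a group and passed the filter on low counts in every comparison. The other 3 members were at the edge of detection. *Myf5* had 0 counts in 30 of 33 libraries and at most 3 in one, *Msc* 0 in 30 and at most 2, and *Myf6* 0 in 19 and at most 5. A count of 0 allows a level of up to 0.0703 CPM in the deepest library and 0.106 CPM in the shallowest, for counting error only, so no difference in these genes was detectable at this depth. *Myf6* had counts of 5, 2 and 2 in Hypoxia MC and 0 in every library of both Plus A groups. Counts of 5, 4 and 4 also occurred in a library each of Hypoxia Trim AGU, Hypoxia Trim AG and Normoxia Trim AGU.

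The order of the expressed members differed between groups when levels were compared per length as FPKM, counts scaled by gene length and library total. In Hypoxia MC, *Myog* led at 228 FPKM, followed by *Mef2a* at 34.0, *Myod1* at 30.5, *Mef2d* at 17.9, *Mef2c* at 7.09 and *Six4* at 6.07 FPKM. In Hypoxia Trim AG, *Myog* was at 7.63 FPKM, behind *Mef2a* at 25.3, *Mef2d* at 21.2 and *Myod1* at 15.7 FPKM. *Myod1* led in each of the 5 normoxia groups, at 66.6 to 71.9 FPKM. These groups all had miR-125b or an isomiR, and Normoxia MC is not among them. *Mef2c* and *Six4* were the lowest 2 members in all 11 groups.

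**Figure D1:**
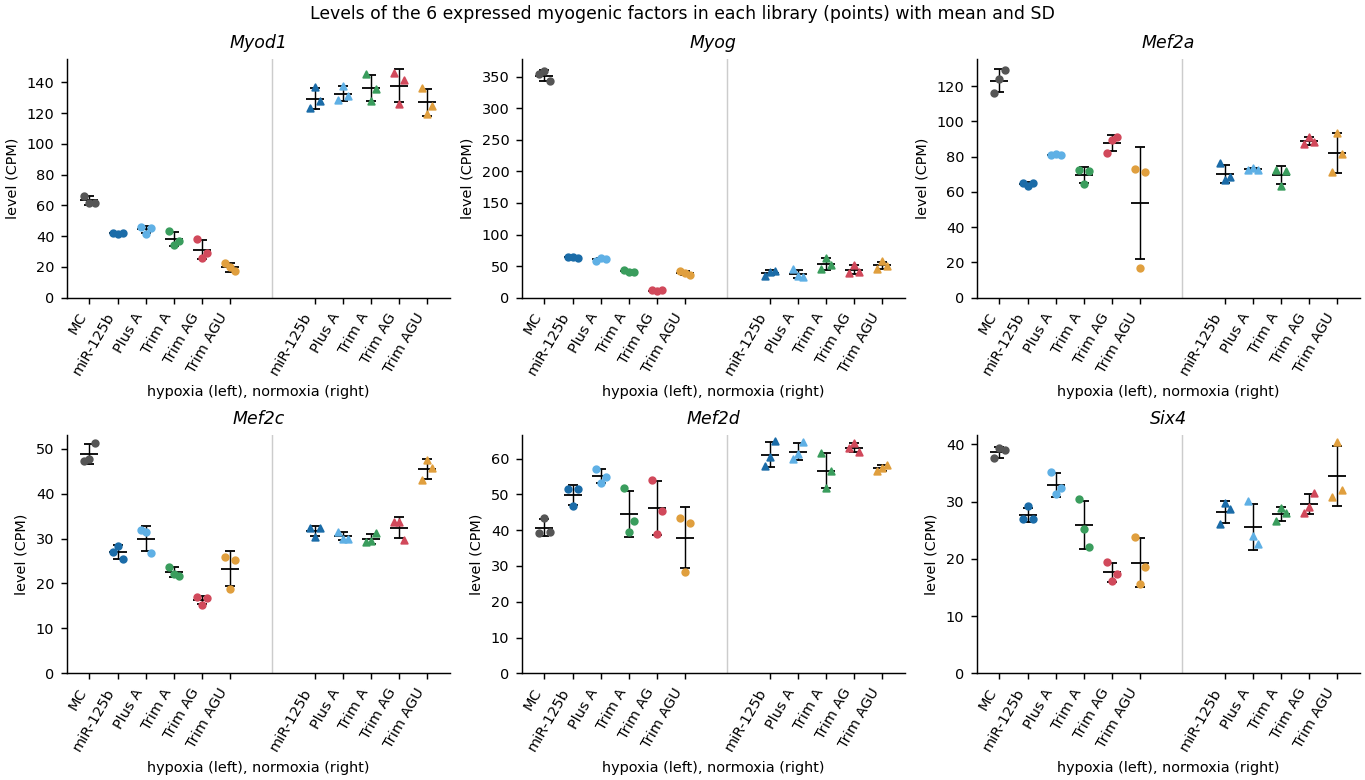
Level in CPM of each expressed member in each library (points), with the group mean and SD (bars, n = 3), for the hypoxia groups on the left and the normoxia groups on the right of each panel. *Myog* lay at 342 to 359 CPM in Hypoxia MC and at 63.6 CPM or below in every normoxia library shown. *Myod1* was higher in every normoxia library shown than in any hypoxia library. The normoxia libraries shown all had miR-125b or an isomiR, and Normoxia MC is not among them.

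In hypoxia *Myog* and *Mef2c* were lower with miR-125b and with each isomiR than with MC, and *Myog* differed by the most, while the fitted values of *Mef2d* were above MC and not called. A gene was called changed when it differed by 1.5-fold or more at a Benjamini-Hochberg adjusted p below 0.05 in the quasi-likelihood test of edgeR. Of the 6 members tested, 3 were called with miR-125b, 2 with Plus A, and 4 with each trimmed isomiR, all of them lower than in MC. The share of all tested genes called in either direction was 23.8% with Trim AGU, 37.2% with Trim AG, 28.1% with Trim A, 24.8% with Plus A and 21.9% with miR-125b. The median log2 fold change of the 6 members was −1.01, −1.01, −0.73, −0.53 and −0.69 in the same order, and that of all genes tested lay within 0.02 of 0. In bulk RNA, fewer cells that express a gene and less of its RNA in each cell cannot be told apart.

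*Myog* was the member with the largest differences from MC. Its level was 354, 359 and 342 CPM in Hypoxia MC (352 ± 8.49, mean ± SD). It was 64.7, 63.9 and 63.1 CPM with miR-125b, and 58.3, 62.2 and 61.2 CPM with Plus A. The libraries of both mimics lay together and far below those of MC. With Trim A the level was 44.3, 40.2 and 41.2 CPM, with Trim AGU 42.0, 39.7 and 36.0 CPM, and with Trim AG 11.8, 10.4 and 11.6 CPM. None of these groups overlapped with MC, and the Trim AG libraries were the lowest of the whole series.
*Myog* fell by 2.42 on the log2 scale with miR-125b (SE 0.0339, 5.37-fold, adjusted p = 4.7e-12, edgeR). The log2 fold change was −2.52 with Plus A (SE 0.0462, adjusted p = 5.4e-10), −3.02 with Trim A (SE 0.0711, adjusted p = 2.1e-07) and −3.02 with Trim AGU (SE 0.120, adjusted p = 0.00023). With Trim AG it was −4.90 (SE 0.0875, adjusted p = 3.1e-08), a 29.9-fold lower level. Of the genes averaging 1 CPM or more, 14 of 13217 had a lower log2 fold change than *Myog* with Trim AG, 57 of 13156 with Trim AGU, 59 of 13228 with Trim A, 74 of 13278 with Plus A and 71 of 13282 with miR-125b. These comparisons share the MC libraries and are not independent of each other. The summed cardiac lineage genes were also highest in MC, at 317 to 338 CPM against 39.3 to 81.4 CPM in the other hypoxia libraries. Most of this sum in MC was the troponin *Tnnt2*, at 307 CPM on average. The other cardiac genes that reached 1 CPM had their highest group means outside MC. These were in Normoxia miR-125b for *Gata4* and *Gata6* and in Normoxia Trim AGU for *Hand2* and *Tnni3*. Summed smooth muscle genes were lower in MC, at 5627 to 5938 CPM, than with the mimics, at 9477 to 16720 CPM. The part of either sum in the *Myog* result was not tested.

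*Myod1*, which specifies myoblasts, differed from MC by less than *Myog*. Its level was 66.5, 61.9 and 61.5 CPM in Hypoxia MC, 41.8, 41.3 and 42.3 CPM with miR-125b and 46.3, 41.7 and 45.2 CPM with Plus A. It was 43.5, 34.3 and 37.2 CPM with Trim A, 38.3, 26.2 and 29.1 CPM with Trim AG and 22.7, 19.8 and 17.1 CPM with Trim AGU. Every mimic library was below every MC library, and the order of the group means followed the length of the mimic, although only MC and Trim AGU did not overlap with their neighbours in that order.
*Myod1* fell with Trim AGU (log2 fold change −1.53, SE 0.138, adjusted p = 0.00098), Trim AG (−0.96, SE 0.126, adjusted p = 0.00023) and Trim A (−0.68, SE 0.0905, adjusted p = 0.00047). With miR-125b and Plus A its log2 fold changes of −0.56 (95% interval −0.66 to −0.46) and −0.49 (−0.62 to −0.35) were below the fold threshold. Without replicate 3 of Hypoxia MC the miR-125b value was −0.59 and passed it. The steepest *Myod1* difference belonged to Trim AGU and the steepest *Myog* difference to Trim AG.

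The MEF2 genes did not move as 1 group. *Mef2c*, the first MEF2 gene expressed in developing muscle and heart, was 47.3, 47.8 and 51.3 CPM in Hypoxia MC and 27.1, 28.4 and 25.5 CPM with miR-125b. It was 31.9, 31.4 and 26.7 CPM with Plus A, 23.7, 22.1 and 21.6 CPM with Trim A, 16.9, 15.3 and 16.8 CPM with Trim AG and 25.9, 18.8 and 25.2 CPM with Trim AGU. Again Trim AG was lowest and no mimic library reached the MC level.
*Mef2c* was called with all 5 mimics, with log2 fold changes of −0.82 (miR-125b, SE 0.0551), −0.68 (Plus A, SE 0.0754), −1.07 (Trim A, SE 0.0693), −1.51 (Trim AG, SE 0.0744) and −0.93 (Trim AGU, SE 0.119), and adjusted p-values from 3.4e-07 to 0.0029.

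*Mef2a*, a MEF2 gene of adult muscle and heart, was 116, 124 and 129 CPM in Hypoxia MC. It was 65.0, 63.2 and 64.9 CPM with miR-125b, 81.1, 81.5 and 81.0 CPM with Plus A and 72.4, 64.4 and 72.1 CPM with Trim A. With Trim AG it was 82.3, 89.3 and 91.1 CPM, and with Trim AGU 72.8, 16.9 and 71.3 CPM. All mimic libraries were below MC, and unlike for *Myog* and *Mef2c* the Trim AG libraries lay nearest to it.
*Mef2a* fell with miR-125b (log2 fold change −0.90, SE 0.0414, adjusted p = 1.8e-08) and Trim A (−0.78, SE 0.0732, adjusted p = 8.6e-05). With Plus A it was −0.58 (95% interval −0.69 to −0.47) and with Trim AG −0.43 (−0.61 to −0.25), below the fold threshold. Without replicate 1 of Hypoxia MC the Plus A value was −0.62 and passed it. With Trim AGU the value was −1.09 (SE 0.452, adjusted p = 0.11). Without replicate 2 of Hypoxia Trim AGU it was −0.69 and called (adjusted p = 0.0002), which made 5 of 6 members called against 25.8% of all genes.

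*Mef2d*, expressed in most tissues, was the only expressed member whose fitted value was not below MC with any mimic. It was 39.2, 43.4 and 39.5 CPM in Hypoxia MC, 51.4, 46.7 and 51.6 CPM with miR-125b and 57.3, 53.2 and 54.9 CPM with Plus A. The libraries of these mimics were all above those of MC, whereas those of the 3 trimmed isomiRs, at 28.2 to 54.1 CPM, overlapped with them. The log2 fold change was 0.33 (95% interval 0.20 to 0.46, adjusted p = 0.00062) with miR-125b and 0.46 (0.33 to 0.59, adjusted p = 0.00011) with Plus A. With Trim A, Trim AG and Trim AGU it was 0.17, 0.24 and 0.03, with adjusted p-values of 0.091 to 0.90, and none of the 5 values passed the fold threshold.

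*Six4* was 37.6, 39.4 and 39.0 CPM in Hypoxia MC, 27.0, 29.2 and 27.0 CPM with miR-125b and 35.2, 31.3 and 32.3 CPM with Plus A. It was 30.4, 25.1 and 22.1 CPM with Trim A, 19.5, 16.1 and 17.3 CPM with Trim AG and 23.9, 15.5 and 18.6 CPM with Trim AGU. No mimic library overlapped with MC, and Trim AG and Trim AGU were lowest.
*Six4* fell with Trim AG (log2 fold change −1.07, SE 0.0825, adjusted p = 1.2e-05) and Trim AGU (−0.87, SE 0.143, adjusted p = 0.0068; −0.78 without replicate 2 of that group). Its values of −0.54 with Trim A, −0.21 with Plus A and −0.44 with miR-125b were below the fold threshold. Without replicate 1 of Hypoxia Trim A the Trim A value was −0.66 and passed it.

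**Figure D2:**
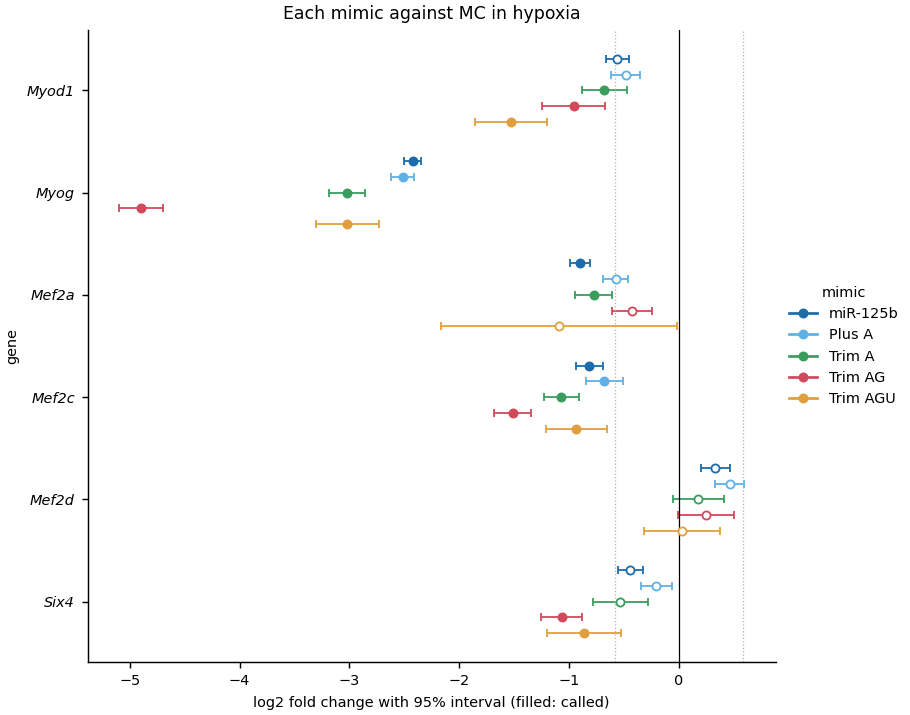
Log2 fold change of each expressed member with each mimic against MC in hypoxia, with the 95% interval (horizontal bars); filled points were called and dotted lines mark 1.5-fold. *Myog* lay between −2.42 and −4.90, and every other member between −1.53 and 0.46.

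The isomiRs were next compared with miR-125b itself, with which they share the seed. There were 8 such comparisons, 4 at each oxygen level, each adjusted over all its genes. In hypoxia Plus A gave 0 of 6 members called against 2.03% of all genes. Its log2 differences from miR-125b were −0.09 for *Myog* (95% interval −0.20 to 0.01) and 0.07 for *Myod1* (−0.05 to 0.19). For *Mef2a* the difference was 0.32 (0.23 to 0.41, adjusted p = 0.0017) and for *Six4* 0.23 (0.09 to 0.38, adjusted p = 0.041), both below 1.5-fold. Trim A, which lacks the last base, gave 1 member called against 0.873% of all genes. This was *Myog* at −0.60 (SE 0.0623, adjusted p = 0.0082), and the fold of 1.52 lay just past the threshold. It was not called in 5 of 6 fits that left out a library, with values of −0.58 to −0.61. These were the fits without replicates 1, 2 or 3 of Hypoxia miR-125b and without replicates 2 or 3 of Hypoxia Trim A.

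Trim AG gave the widest differences of *Myog*, *Mef2c* and *Six4* from miR-125b in hypoxia. With it 3 of 6 members were called, all lower, against 19.3% of all genes. *Myog* was 5.60-fold lower, at a log2 fold change of −2.49 (SE 0.0732, adjusted p = 3.8e-06), *Mef2c* was at −0.71 (SE 0.0788, adjusted p = 0.00031) and *Six4* at −0.64 (SE 0.0857, adjusted p = 0.00077). Leaving out the second Hypoxia Trim AG library gave *Six4* −0.58, below the fold threshold. *Myod1* at −0.41 (adjusted p = 0.029) and *Mef2a* at 0.46 (adjusted p = 0.0015) differed by less than 1.5-fold and in opposite directions. *Mef2d* was at −0.10 (95% interval −0.35 to 0.16).

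Trim AGU gave 2 of 6 members called, both lower, against 3.75% of all genes. *Myod1* was at −0.98 (SE 0.137, adjusted p = 0.016) and *Myog* at −0.61 (SE 0.111, adjusted p = 0.037). Neither was called in the fits without replicate 1, 2 or 3 of Hypoxia miR-125b or without replicate 3 of Hypoxia Trim AGU, with values of −0.83 to −0.99 and −0.50 to −0.61. Without the library that stood apart, replicate 2 of Hypoxia Trim AGU, they were −1.04 (adjusted p = 0.0013) and −0.68 (adjusted p = 0.0017), against 8.46% of all genes. *Mef2a* had a 95% interval of −1.27 to 0.85 with all libraries, so a difference from miR-125b could not be shown or bounded closely with them. Without replicate 2 of Hypoxia Trim AGU *Mef2a* was at 0.20 (95% interval 0.05 to 0.34, adjusted p = 0.063, edgeR) and not called.

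In normoxia no member was called with any isomiR against miR-125b by edgeR, with 3, 1, 1 and 0 of 6 members at an unadjusted p below 0.05 for Trim AGU, Trim AG, Trim A and Plus A, and DESeq2 called 0 as well. The share of all genes called was 11.4%, 13.9%, 0.414% and 0.0% in that order. *Myod1* was 119.6 to 146 CPM in the 15 normoxia libraries, and its 4 log2 differences from miR-125b lay between −0.03 and 0.08. *Myog* was 35.2, 41.4 and 42.3 CPM with miR-125b and 39.8, 52.4 and 41.4 CPM with Trim AG, and these groups overlapped. The log2 difference of *Myog* was 0.12 with Trim AG (95% interval −0.13 to 0.37) and 0.37 with Trim AGU (0.13 to 0.61, adjusted p = 0.032). *Mef2c* was 43.1, 47.5 and 45.8 CPM with Trim AGU and 32.3, 30.3 and 32.4 CPM with miR-125b. These libraries did not overlap, and the log2 difference of 0.51 (0.34 to 0.69, adjusted p = 0.0017) was below 1.5-fold. *Mef2a* with Trim AG was at 0.29 (0.14 to 0.44, adjusted p = 0.0068). Without replicate 1 of Normoxia Plus A and of Normoxia miR-125b, *Myog* with Plus A was at −0.29 (adjusted p = 0.042) against −0.08 with all libraries. The share of all genes called was then 1.12%, and still no member was called with any isomiR.

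**Figure D3:**
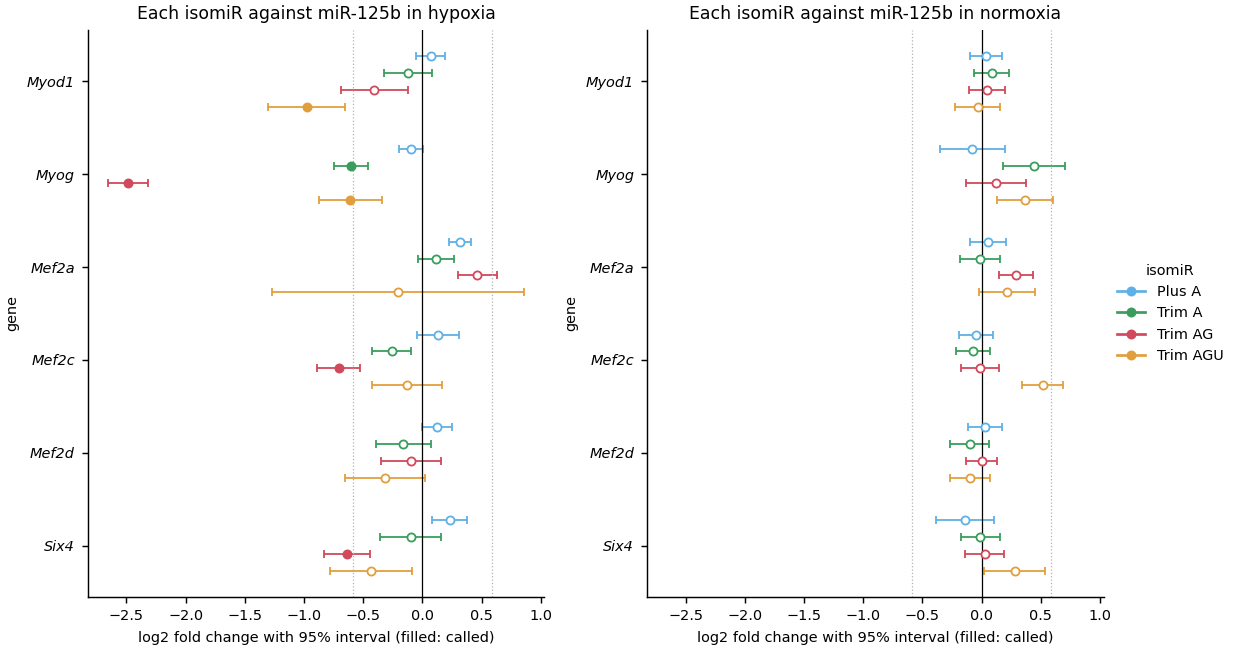
Log2 fold change of each expressed member with each isomiR against miR-125b in hypoxia (left) and normoxia (right), with the 95% interval; filled points were called and dotted lines mark 1.5-fold. In hypoxia *Myog* with Trim AG lay at −2.49, while all values in normoxia lay between −0.14 and 0.51.

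Whether an isomiR differed from miR-125b to another degree in hypoxia than in normoxia was tested as an interaction. With Plus A 0 members were called, against 0.0193% of all genes. With Trim A the *Myog* interaction was −1.03 on the log2 scale (SE 0.146, adjusted p = 0.018), 1 of 6 members against 0.605% of all genes. With Trim AG *Myog* was at −2.62 (SE 0.144, adjusted p = 4.7e-07), *Mef2c* at −0.71 (SE 0.105, adjusted p = 0.00076) and *Six4* at −0.67 (SE 0.113, adjusted p = 0.0016), 3 of 6 members against 11.3% of all genes. *Myod1* with Trim AG was at −0.46 (adjusted p = 0.038) and below the fold threshold, and at −0.62 and called when the first Hypoxia Trim AG library was left out. For Trim AGU *Myod1* was at −0.91 (SE 0.157, adjusted p = 0.023) and *Myog* at −0.94 (SE 0.165, adjusted p = 0.025), 2 of 6 members against 0.966% of all genes.
The Trim AG calls for *Myog*, *Mef2c* and *Six4* held without the first libraries of Normoxia Plus A and Normoxia miR-125b, at −2.54, −0.72 and −0.62 against 9.92% of all genes. Those of Trim A and Trim AGU did not: *Myog* with Trim A was at −0.97 (adjusted p = 0.053), and with Trim AGU *Myod1* was at −0.91 (adjusted p = 0.072) and *Myog* at −0.89 (adjusted p = 0.064). In these fits 0 of 15833 genes were called with Trim A and 0.202% of all genes with Trim AGU. Without replicate 2 of Hypoxia Trim AGU, *Myod1* at −1.02, *Myog* at −1.06 and *Six4* at −0.64 were called, against 3.51% of all genes. Without replicate 1 of that group *Six4* at −0.81 and *Mef2c* at −0.65 were called. The *Myog* call with Trim A was also lost without Normoxia miR-125b replicate 1 or 2, Hypoxia miR-125b replicate 2 or 3 or Hypoxia Trim A replicate 3 (−0.97 to −1.07). With Trim AGU both calls were lost without any 1 of the 6 miR-125b libraries or without Normoxia Trim AGU replicate 3. The *Myod1* call was lost as well without Normoxia Trim AGU replicate 1 (−0.85), and the *Myog* call without Normoxia Trim AGU replicate 2 (−0.85) or Hypoxia Trim AGU replicate 3 (−0.85).

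*Myod1* was lower in hypoxia than in normoxia with every mimic. Its level was 17.1 to 46.3 CPM in the 15 hypoxia libraries with miR-125b or an isomiR and 119.6 to 146 CPM in the 15 normoxia libraries, with no overlap. The log2 fold change was −2.63 with Trim AGU (SE 0.160, adjusted p = 0.00016), −2.14 with Trim AG, −1.91 with Trim A, −1.69 with Plus A and −1.71 with miR-125b (SE 0.0517, adjusted p = 6.9e-08). *Myod1* was therefore 3.22-fold to 6.21-fold lower. The Trim AGU value was −2.70 without replicate 2 of Hypoxia Trim AGU, and without the first libraries of Normoxia Plus A and Normoxia miR-125b the Plus A and miR-125b values were −1.73 and −1.75, all called.

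*Myog* did not follow *Myod1* across oxygen. With miR-125b it was 64.7, 63.9 and 63.1 CPM in hypoxia and 35.2, 41.4 and 42.3 CPM in normoxia, a log2 fold change of 0.61 (SE 0.0706, adjusted p = 9.6e-05). With Plus A it was 0.59 (SE 0.102, adjusted p = 0.0011), so *Myog* was higher in hypoxia while *Myod1* was lower. Both *Myog* values lay close to the fold threshold: without replicate 1 of Normoxia miR-125b the first was 0.53 and not called. The second was 0.49 to 0.58 and not called without replicate 2 or 3 of Normoxia Plus A or of Hypoxia Plus A, and 0.71 and called without replicate 1 of Normoxia Plus A.
With Trim AG the *Myog* value was −1.98 (SE 0.117, adjusted p = 2.8e-06), from 39.8, 52.4 and 41.4 CPM in normoxia to 11.8, 10.4 and 11.6 CPM in hypoxia. With Trim A it was −0.43 (95% interval −0.69 to −0.16, adjusted p = 0.015) and with Trim AGU −0.35 (−0.69 to −0.01, adjusted p = 0.11), neither called. The Trim AGU value was −0.43 (adjusted p = 0.026) and below the fold threshold without replicate 2 of Hypoxia Trim AGU.

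Of the other members, *Mef2c* fell in hypoxia with Trim AG (−0.98, SE 0.0888, adjusted p = 2.8e-05) and Trim AGU (−0.93, SE 0.141, adjusted p = 0.0035), and so did *Six4* (−0.74, SE 0.0927, adjusted p = 0.00017, and −0.80, SE 0.183, adjusted p = 0.016). The Trim AGU value of *Six4* was −0.68 to −0.86 and not called without replicate 2 or 3 of Normoxia Trim AGU or replicate 3 of Hypoxia Trim AGU, and −0.72 and called without replicate 2 of Hypoxia Trim AGU, where *Mef2c* was at −0.86 and called. *Mef2d* had log2 values of −0.28 to −0.57 with the 5 mimics, with adjusted p-values of 0.00095 to 0.028, and none was called. With Trim AGU *Mef2d* was at −0.64 and called without replicate 1 of Hypoxia Trim AGU. It was at −0.45 and not called without replicate 2, the library that stood apart. *Mef2a* was between −0.61 and 0.05 and not called. The lowest of these values was that of Trim AGU, which was −0.21 (95% interval −0.50 to 0.08) without replicate 2 of Hypoxia Trim AGU.
In all, hypoxia against normoxia gave 3 members called with Trim AGU (27.0% of all genes called), 4 with Trim AG (32.8%), 1 with Trim A (26.5%), 2 with Plus A (22.8%) and 2 with miR-125b (20.9%). Without replicate 2 of Hypoxia Trim AGU the first count was 3 (28.8% of all genes). Without the first libraries of Normoxia Plus A and Normoxia miR-125b the count was 1 with miR-125b (20.4% of all genes) and 2 with Plus A (21.9%). The fibroblast genes summed to 9379 to 18880 CPM in Hypoxia Trim AG and 23830 to 27090 CPM in Normoxia Trim AG, and their part in these values was not tested.

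**Figure D4:**
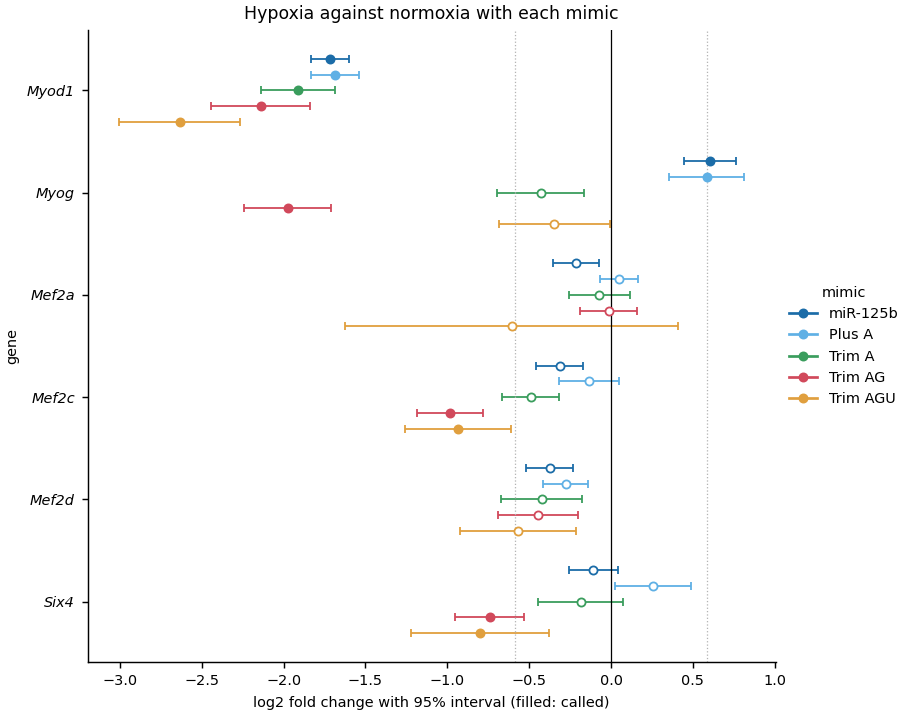
Log2 fold change of each expressed member in hypoxia against normoxia with the same mimic, with the 95% interval; filled points were called and dotted lines mark 1.5-fold. *Myod1* lay between −1.69 and −2.63 with every mimic, while *Myog* ran from 0.61 with miR-125b to −1.98 with Trim AG.

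Across the 11 groups the highest *Myog* level was 352 CPM in Hypoxia MC and the next 63.9 CPM in Hypoxia miR-125b. The lowest was 11.3 CPM in Hypoxia Trim AG. In the order of the group means the libraries of MC, of Hypoxia miR-125b and of Hypoxia Trim AG did not overlap with their neighbours, and each other neighbouring pair did. For *Myod1* the 5 normoxia groups, at 127 to 138 CPM, overlapped with their neighbours, and Hypoxia MC at 63.3 CPM and Hypoxia Trim AGU at 19.9 CPM stood apart from theirs. For *Mef2c* Hypoxia MC at 48.8 CPM and Normoxia Trim AGU at 45.5 CPM overlapped at the top. For *Mef2a* Hypoxia MC at 123 CPM stood alone at the top, while for *Six4* Hypoxia MC at 38.7 CPM overlapped with Normoxia Trim AGU at 34.4 CPM. For *Mef2d* Normoxia Trim AG was highest at 63.1 CPM and Hypoxia Trim AGU lowest at 37.9 CPM.

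Likeness of patterns was measured as Pearson's r of the group means of log2 CPM over the 11 groups, which share libraries, depth and treatments, against 11183 genes. The genes most like *Myog* were *Scara3* (r = 0.988), *Tpst1* (0.985) and *Igfbp5* (0.975). Those most like *Myod1* were *Parm1* (0.995), *Gse1* (0.995) and *Ptprb* (0.991). For *Mef2a* they were *Fosl2*, *Baz1a* and *Vcpip1* (0.942 to 0.976), for *Mef2c* *Tbl1xr1*, *Gusb* and *Chd3* (0.967 to 0.969), for *Mef2d* *Slc22a15*, *Bcl9l* and *Cad* (0.974 to 0.979) and for *Six4* *Peg3*, *Ppp1r9a* and *Fryl* (0.969 to 0.981). Between members, r was highest for *Mef2c* and *Six4* (0.901), followed by *Myod1* and *Mef2d* (0.838), and lowest for *Myog* and *Mef2d* (−0.211). *Myog* and *Myod1* had an r of 0.150. These values describe 11 points and carry no test.

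A list of 40 muscle genes regarded as targets of these factors was followed with them, and 39 of its symbols were in the tables. Against MC in hypoxia 37 were tested. Of these, 25 were called lower with Trim AGU, 25 with Trim AG, 26 with Trim A, 26 with Plus A and 25 with miR-125b, and 0 were called higher with any mimic. These are 67.6% to 70.3% of the targets tested, beside the 21.9% to 37.2% of all genes given above. Their median log2 fold change was −1.44, −1.54, −1.77, −1.42 and −1.51 in that order. Without replicate 2 of Hypoxia Trim AGU the Trim AGU values were 28 genes lower, 0 higher and a median of −1.58, with 25.8% of all genes called. The lower genes included sarcomere proteins and subunits of the acetylcholine receptor. The cardiac actin *Actc1* was 31.5 to 35.0 CPM in Hypoxia MC and 0.928 to 1.84 CPM with miR-125b (log2 fold change −4.47, SE 0.151, adjusted p = 2.1e-09). The embryonic myosin *Myh3* was 228 to 276 CPM in MC and 15.8 to 19.0 CPM with miR-125b (−3.84, SE 0.0802, adjusted p = 9.5e-11). With Trim AG the receptor subunit *Chrnd* was at −4.63 (SE 0.146, adjusted p = 2.2e-07) and the fast troponin *Tnni2* at −5.06 (SE 0.204, adjusted p = 6.3e-07).

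The skeletal actin *Acta1* was 1 of the 12 of 37 targets not called with Trim AG against MC. It was 165, 160.5 and 173 CPM in Hypoxia MC, 17.4, 19.4 and 19.7 CPM with miR-125b and 181, 139.9 and 160.5 CPM with Trim AG. Trim AG thus overlapped with MC (log2 fold change 0.01, SE 0.0942, adjusted p = 0.92), in the group where *Myog* was lowest, whereas the other mimics gave −1.25 to −3.10. Against miR-125b in hypoxia the targets called higher and lower were 4 and 1 with Trim AGU, 3 and 10 with Trim AG, 1 and 2 with Trim A and 1 and 0 with Plus A, the last being the fusion gene *Tmem8c* (0.68). These are 13.9%, 35.1%, 8.33% and 2.78% of the targets tested, against 3.75%, 19.3%, 0.873% and 2.03% of all genes. With Trim AG the genes called higher were *Acta1* (3.11, SE 0.105, adjusted p = 5.9e-06), *Tnnc2* (1.24, SE 0.114, adjusted p = 0.00013) and *Tmem8c* (1.08, SE 0.145, adjusted p = 0.00076), and *Chrnd* was among the lower (−2.19).
*Acta1* was also called higher with Trim A (0.77) and Trim AGU (1.84), and *Chrnd* lower with Trim A (−1.22). The Trim A call of *Acta1* was lost without any 1 of the Hypoxia miR-125b libraries (0.72 to 0.80, adjusted p up to 0.059) and the Trim AGU call without replicate 1 of Hypoxia miR-125b (1.81, adjusted p = 0.055). The Trim A call of *Chrnd* held only without replicate 1 of Hypoxia Trim A, and was lost when any of the other 5 libraries was left out (−1.03 to −1.24, adjusted p up to 0.19). Without replicate 2 of Hypoxia Trim AGU the Trim AGU counts were 4 higher and 7 lower of 36 targets tested. The share of all genes called was then 8.46%, against 3.75% with all libraries.

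In normoxia the target counts against miR-125b were 3 and 1 with Trim AGU and 11 and 1 with Trim AG. They were 3 and 0 with Trim A and 0 and 0 with Plus A. In this order that is 11.1%, 33.3%, 8.33% and 0.0% of the targets tested, against 11.4%, 13.9%, 0.414% and 0.0% of all genes. With Trim AG *Acta1* was at 1.77 (SE 0.0904, adjusted p = 6.3e-06), the troponin *Tnnc2* at 1.60 (SE 0.142, adjusted p = 4.8e-05) and *Myh3* at 1.17 (SE 0.274, adjusted p = 0.0084), while 0 members were called. With Trim AGU the laminin receptor *Itga7* was at 1.24 and the cell cycle inhibitor *Cdkn1a* at −1.06. Without the first libraries of Normoxia Plus A and Normoxia miR-125b the counts were 6 and 1, 10 and 1, 3 and 0, and 1 and 0. The shares of all genes called were then 9.53%, 13.1%, 0.60% and 1.12%. The interaction with oxygen was called for 2 targets upward and 17 downward with Trim AG, among them *Tnni2* (−2.50) and *Chrnd* (−1.89). With Trim AGU it was called for *Acta1* upward (1.26) and *Klhl41* downward (−0.90), and with Plus A and Trim A for 0 targets. That is 52.8% of the targets tested with Trim AG and 5.56% with Trim AGU, against 11.3% and 0.966% of all genes. Without replicate 2 of Hypoxia Trim AGU the Trim AGU counts were 2 and 3, and without the first libraries of Normoxia Plus A and Normoxia miR-125b 0 and 1, when those of Trim AG were 2 and 16. The shares of all genes called in these fits were 3.51%, 0.202% and 9.92% in that order. The Trim AGU call of *Acta1* was lost without any 1 of the 6 miR-125b libraries or replicate 1 or 3 of Normoxia Trim AGU (1.11 to 1.29, adjusted p up to 0.084). That of *Klhl41* was lost without any of the same miR-125b libraries but Normoxia replicate 1, any Normoxia Trim AGU library or replicate 3 of Hypoxia Trim AGU (−0.83 to −0.94, adjusted p up to 0.14).
Between hypoxia and normoxia the targets called higher and lower were 7 and 8 with Trim AGU and 4 and 16 with Trim AG. They were 3 and 11 with Trim A, 9 and 9 with Plus A and 12 and 11 with miR-125b. In this order that is 41.7%, 54.05%, 38.9%, 51.4% and 63.9% of the targets tested, against 27.0%, 32.8%, 26.5%, 22.8% and 20.9% of all genes. The counts were 8 and 11 with Trim AGU without replicate 2 of Hypoxia Trim AGU. They were 9 and 12 with Plus A and 12 and 9 with miR-125b without the first normoxia libraries of these groups. The shares of all genes called in these 3 fits were 28.8%, 21.9% and 20.35%. The kelch protein gene *Klhl41*, of the sarcomere, was lower in hypoxia with all 5 mimics (−2.58 to −3.84), as *Myod1* was. The receptor subunit *Chrna1* was higher in hypoxia with all 5, from 0.69 with Trim AG to 2.50 with Plus A.

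**Figure D5:**
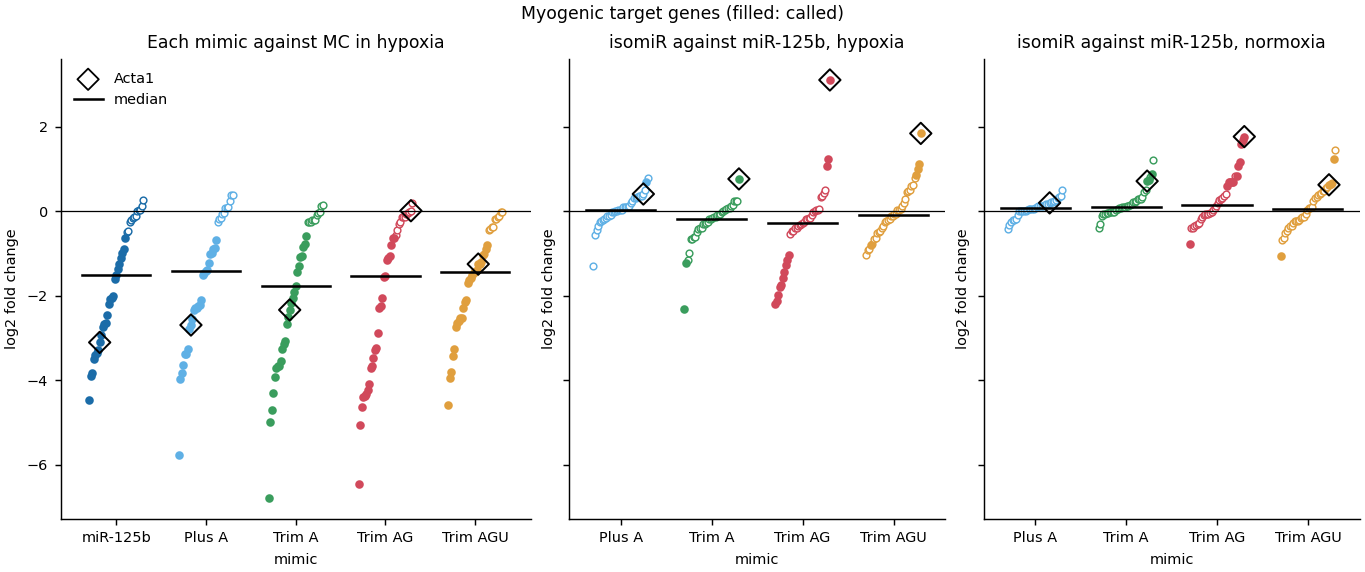
Log2 fold changes of the tested genes of the target list, 1 point a gene sorted by value, for each mimic against MC in hypoxia (left) and each isomiR against miR-125b in hypoxia (middle) and normoxia (right); filled points were called, horizontal lines are medians and diamonds mark *Acta1*. Against MC the medians lay between −1.42 and −1.77, and *Acta1* stood at 0.01 with Trim AG.

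A list of 44 partners and regulators of the myogenic factors, 43 of them in the tables, moved in both directions. Against MC in hypoxia the number called higher and lower was 3 and 9 with Trim AGU, 7 and 11 with Trim AG, 4 and 13 with Trim A, 4 and 8 with Plus A and 3 and 10 with miR-125b, out of 37 or 38 tested. These are 31.6%, 47.4%, 46.0%, 32.4% and 34.2% of those tested, against 23.8%, 37.2%, 28.1%, 24.8% and 21.9% of all genes. *Smyd1*, a muscle histone methyltransferase, was lower with all 5 mimics (−2.20 to −4.13). *Mef2b*, the MEF2 gene outside the 9 members, was higher with all 5 (1.99 to 3.03) from a low level of 0.524 CPM in MC to 1.90 to 4.18 CPM, although its Trim AGU value was 2.05 and not called without replicate 2 of Hypoxia MC (adjusted p = 0.054). With Trim AGU the counts were 2 and 11 of 39 tested without the library that stood apart, with 25.8% of all genes called.
Against miR-125b in hypoxia the counts were 0 and 1 with Trim AGU, 4 and 6 with Trim AG and 0 and 0 with Trim A and Plus A, which is 2.78% of the partners tested with Trim AGU (3.75% of all genes) and 27.0% with Trim AG (19.3%). The Trim AGU counts were 1 and 2 of 37 tested without replicate 2 of Hypoxia Trim AGU, with 8.46% of all genes called. Serum response factor, *Srf*, which drives actin genes, was 209, 177 and 189.9 CPM with Trim AG and 93.1, 89.8 and 93.5 CPM with miR-125b. The groups did not overlap, and *Srf* was called higher (log2 fold change 1.08, SE 0.0745, adjusted p = 3.6e-05), while *Eya4*, a cofactor of homeodomain factors such as Six4, was lower (−0.86, SE 0.0815, adjusted p = 0.00015). In normoxia the counts were 3 and 1 with Trim AGU, 4 and 3 with Trim AG and 0 and 0 with Trim A and Plus A, so that 4 of the 38 partners tested were called with Trim AGU, against 11.4% of all genes, and 18.4% of them with Trim AG, against 13.9%. Without the first libraries of Normoxia Plus A and Normoxia miR-125b the counts of Trim AGU were 1 and 1 (9.53% of all genes called) and those of Plus A 1 and 0 (1.12%). *Mdfic*, related to an inhibitor of the MyoD family, was lower with Trim AGU in hypoxia (−0.73) and normoxia (−0.98) and with Trim AG in normoxia (−0.69). The hypoxia call was lost in 4 of 6 fits that left out a library, without any 1 of the Hypoxia miR-125b libraries or replicate 3 of Hypoxia Trim AGU (−0.70 to −0.76, adjusted p up to 0.16). The interaction with oxygen was called for 5 partners upward and 4 downward with Trim AG, including *Smyd1* (−1.55), *Mef2b* (1.21) and the deacetylase *Hdac5* (−0.94). That is 23.7% of the partners tested, against 11.3% of all genes. With the other isomiRs it was called for 0 partners. The *Smyd1* call was lost without Normoxia miR-125b replicate 2 or 3, Hypoxia miR-125b replicate 2 or Normoxia Trim AG replicate 2 (−1.09 to −1.45, adjusted p up to 0.076). That of *Mef2b* was lost without replicate 1 of either miR-125b group or replicate 1 or 2 of Normoxia Trim AG (adjusted p up to 0.057). The Trim AG counts were 4 and 6 without the first libraries of Normoxia Plus A and Normoxia miR-125b (9.92% of all genes called). The Trim AGU counts were 0 and 1 without replicate 2 of Hypoxia Trim AGU (3.51%).

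Between hypoxia and normoxia 1 partner was higher and 16 lower with Trim AGU, 3 and 16 with Trim AG, 2 and 14 with Trim A, 3 and 12 with Plus A and 2 and 13 with miR-125b, which is 39.5% to 50.0% of those tested against 20.9% to 32.8% of all genes. The counts were 2 and 17 with Trim AGU without replicate 2 of Hypoxia Trim AGU (28.8% of all genes called). They were 3 and 11 with Plus A (21.9%) and 3 and 12 with miR-125b (20.35%) without the first normoxia libraries of these groups. The Id proteins pair with E proteins and keep them from the myogenic regulatory factors. *Id3* was 230, 225 and 239.6 CPM in Normoxia miR-125b and 32.8, 32.9 and 32.0 CPM in Hypoxia miR-125b, with no overlap (log2 fold change −2.91, SE 0.0471, adjusted p = 1.3e-09). *Id1*, *Id2* and *Id3*, followed in all 5 mimics after their values were seen, were called lower in hypoxia in each, between −1.71 and −3.37. *Id3* was also lower with each mimic than with MC in hypoxia, at −0.71 to −1.25. *Id1* (−0.15 to 0.70) and *Id2* (0.01 to 0.35) were not called with any mimic against MC.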

How the data were processed

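Poly-A RNA was sequenced in nonstranded libraries, so reads of overlapping or antisense genes cannot be told apart. Per the submitters' processing notes HISAT2 and StringTie were used, and the genome build is not given in the sources used here. The authors deposited 12 tables of paired groups. In 11 of them the deposited values are raw counts and FPKM for each library, and in 1 an expression signal given by the authors as group means of Normoxia Plus A and Normoxia MC. Columns of the authors' own tests (fold changes and p-values) were not used. For Normoxia MC no counts by library were used here. A gene absent from a table was set to a count of 0. The labels' Trim 1, Trim 2 and Trim 3 were taken as Trim A, Trim AG and Trim AGU.

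Tables were merged by gene ID (pandas 2.3.3 and numpy 2.4.6 under Python 3.11.15). CPM were scaled by the library total alone. Each of 18 pairs of groups and 4 interactions was fitted with edgeR 4.0.16 in R 4.3.3 (TMM factors 0.898 to 1.06, filterByExpr, quasi-likelihood test), with Benjamini-Hochberg adjustment over all genes tested. The alternatives tried were a replicate block, DESeq2 1.42.0, all genes kept whatever their counts, all libraries in 1 fit, no fold threshold and libraries left out. The edgeR and DESeq2 fits were tested on simulated counts, for a pair of groups and for an interaction. Figures were drawn with matplotlib 3.10.9. The members, gene lists and tests were chosen with earlier results of these data known. From each list the text names up to 3 called genes a comparison with the largest fold change and a mean of at least 1 CPM, and other genes were chosen after their values were seen. Log2 CPM for likeness used a prior count of 2.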

Additional observations from a re-analysis of the deposited data

Results flagged for a closer look

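The differences between isomiR and miR-125b that themselves differed between hypoxia and normoxia, by the edgeR interaction test at an adjusted p below 0.05, were the following. With Trim A the interaction of *Myog* was −1.03 on the log2 scale. With Trim AG it was −2.62 for *Myog*, −0.71 for *Mef2c*, −0.67 for *Six4* and −0.46 for *Myod1*, the last below 1.5-fold. With Trim AGU it was −0.91 for *Myod1* and −0.94 for *Myog*. Oxygen and medium changed together in these groups and cannot be told apart.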

How the results depend on the processing

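Of 41 called member values, 0 changed direction under any alternative. All 41 were kept with all libraries in 1 fit, 39 with DESeq2, 40 without a filter on low counts and 34 with the replicate block. The replicate numbers showed no pairing of the samples: in 0 of 18 comparisons did every same-numbered pair correlate above 0.1 (r from −0.262 to 0.146). With 3 libraries a group, some of which stood apart, this check cannot exclude a shared culture or batch. With the replicate block 0 members were called with Trim A and 0 with Trim AGU against miR-125b in hypoxia, and 0 in the interactions of Trim A and of Trim AGU. The share of all genes called with the block is not given here, so these counts cannot be set beside it.

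Without a fold threshold the members called, with the share of all genes called in the same way, were 6 with miR-125b (59.5%) and 6 with Plus A (56.6%) against MC, 2 with Plus A (15.9%) and 5 with Trim AG (41.4%) against miR-125b in hypoxia, 1 with Trim AG (38.5%) and 2 with Trim AGU (25.0%) in normoxia, and 5 with miR-125b (50.8%) and 4 with Trim A (47.6%) between oxygen conditions. With DESeq2 1 member was called with Trim AGU against miR-125b in hypoxia, 1 between oxygen conditions with Plus A (also 1 without a filter on low counts) and 4 in the Trim AGU interaction (also 4 with all libraries in 1 fit). The share of all genes called in these fits is not given here, so these counts cannot be set beside it. Without the first libraries of Normoxia Plus A and Normoxia miR-125b 1 member was called between oxygen conditions with miR-125b (20.35% of all genes). In the interactions 0 members were then called with Trim A (0.0% of all genes) and 0 with Trim AGU (0.202%).

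With each library left out in turn, 238 of 282 called values kept their call. Against MC in hypoxia the members called ranged from 3 to 4 with miR-125b, 2 to 3 with Plus A, 4 to 5 with Trim A and 4 to 5 with Trim AGU. Against miR-125b in hypoxia they ranged from 0 to 1 with Trim A, 2 to 3 with Trim AG and 0 to 2 with Trim AGU. Between oxygen conditions they ranged from 1 to 2 with miR-125b, 1 to 2 with Plus A and 2 to 4 with Trim AGU, and in the interactions from 0 to 1 with Trim A, 3 to 4 with Trim AG and 0 to 4 with Trim AGU. The share of all genes called moved as well and is not given here for every fit. In the Trim AGU interaction it was 0.966% with all libraries and 3.51% without replicate 2 of Hypoxia Trim AGU. Where a fit keeps 2 libraries of a group, fewer samples support it, and otherwise the cause of a change was not tested.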

Other observations

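For Normoxia MC only the authors' group means were used, set beside their means for Normoxia Plus A, with no error and no test. The authors' mean of *Myog* was 4059 in Normoxia MC and 1111 in Normoxia Plus A, and that of *Mef2c* 1557 and 905. For *Myod1* the authors' means were 4351 and 3936, for *Mef2a* 2408 and 2162, for *Six4* 892 and 758 and for *Mef2d* 1360 and 1840. Of these 6 members only *Mef2d* had the lower mean in Normoxia MC.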
